A study of Homo sapiens with 4 samples.

Results

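Several human genes exist as near-identical copies, so that a short sequencing read often fits more than one of them. RNA-seq counts were examined for 9 such genes in 4 groups of copies, NOMO1, NOMO2 and NOMO3, SMN1 and SMN2, EIF3C and EIF3CL, and CCZ1 and CCZ1B. They are 9 of the 19225 entries of the count table, and all 9 had a mean of at least 1 CPM (counts scaled to library depth) in both cell lines. The copies were selected on their counts in the comparison of sh-WDR4-2 with sh-NC, so this comparison is given below as a description with no test. The comparison of the cell lines did not enter the choice and was tested. Its error rests in part on how far the sh-WDR4-2 and sh-NC difference varies between the cell lines. The test is therefore not independent of the choice.

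The study transduced HCC-LM3 cells, a human hepatocellular carcinoma line known for its metastatic behaviour, and Huh-7 cells, a human hepatoma line, with the lentiviral hairpin sh-WDR4-2 against WDR4 or with sh-NC, a scrambled control hairpin. The labels place every library at 48 h. There was 1 library for each of HCC-LM3 sh-WDR4-2, HCC-LM3 sh-NC, Huh-7 sh-WDR4-2 and Huh-7 sh-NC, so differences between the hairpins have no replicate check in either cell line. The paper describes the cells as stably transduced, while the treatment labels call the agent a transduction with WDR4 in HCC-LM3 cells and a siRNA in Huh-7 cells.

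Libraries held 29807047 to 40572251 counts, and the HCC-LM3 sh-WDR4-2 library came from lane 4, while the other 3 came from lane 3. In HCC-LM3 cells the target of the hairpin, WDR4, had 1009 counts under the sh-WDR4-2 label and 1604 counts under sh-NC, for a log2 fold of −0.22 (95% counting interval −0.34 to −0.11). Its counts in Huh-7 cells were 990 under the sh-WDR4-2 label and 1077 under sh-NC, for a log2 fold of −0.02 (−0.15 to 0.11). Because WDR4 was little or not detectably lower, sh-WDR4-2 names the label throughout, and each direction between the hairpins is between labelled libraries. Of 7 hepatocyte markers, ALB and TTR were listed at 0 in all libraries and SERPINA1, TF and AFP had at most 7 counts, while APOA1 and APOB, at 2869 to 5407 counts, carry symbols that break the row order which 18993 of the 19225 entries follow. All 9 copies stand in that order, but so do ALB, TTR, SERPINA1, TF and AFP. A place in the order therefore does not show that a symbol carries its own counts.

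The NOMO proteins sit in the membrane of the endoplasmic reticulum in a complex with nicalin (NCLN) and TMEM147. SMN, the survival motor neuron protein, assembles spliceosomal ribonucleoproteins together with the gemins, and loss of SMN1 with SMN2 left in place causes spinal muscular atrophy. EIF3C is a core subunit of eIF3, the initiation factor that brings the small ribosomal subunit to mRNA. CCZ1 forms with MON1 the exchange factor that activates RAB7A on late endosomes.

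The copies lie apart in the genome (GRCh38, GENCODE release 29). NOMO1 lies on chr16:14833681-14896160 and NOMO3 on chr16:16232495-16294814, both on the plus strand, and NOMO2 on chr16:18417325-18562211 on the minus strand. SMN1 lies on chr5:70925030-70953942 and SMN2 on chr5:70049612-70078522, both on the plus strand. EIF3C lies on chr16:28688558-28735730 on the plus strand and EIF3CL on chr16:28379579-28403879 on the minus strand. CCZ1 lies on chr7:5898725-5926550 on the plus strand and CCZ1B on chr7:6794134-6826770 on the minus strand.

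In the longest coding transcript of each gene, NOMO3 differed from NOMO1 at 18 and from NOMO2 at 9 of 3804 coding bases, and NOMO1 differed from NOMO2 at 19. At 4 of these positions NOMO3 differed from both other copies, against 14 positions particular to NOMO1 and 5 to NOMO2. A read that covers such a position can be told from both other copies. Of the 4 that mark NOMO3, 2 are shown, with the distinguishing base in capitals and positions counted from the first base of the start codon. Position 1374 lies in exon 12, at chr16:16261640-16261669 (plus strand) in NOMO3, chr16:14863151-14863180 (plus) in NOMO1 and chr16:18533012-18533041 (minus) in NOMO2. Position 2211 lies in exon 19, at chr16:16273830-16273859 in NOMO3, chr16:14875177-14875206 in NOMO1 and chr16:18520813-18520842 in NOMO2, on the same strands.
NOMO3 around position 1374: ttgttttaaagcaaaCccagggacttacaa
NOMO1 around position 1374: ttgttttaaagcaaaAccagggacttacaa
NOMO2 around position 1374: ttgttttaaagcaaaAccagggacttacaa
NOMO3 around position 2211: aatgaccaagcctccTgtgcaggagatggt
NOMO1 around position 2211: aatgaccaagcctccCgtgcaggagatggt
NOMO2 around position 2211: aatgaccaagcctccCgtgcaggagatggt

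SMN1 and SMN2 differed at 1 of 885 coding bases, position 840 in exon 8 of this transcript, which leaves the 294 residues the same. It is shown because this single base is known to lower the inclusion of its exon in SMN2 mRNA. The stretches are chr5:70951941-70951970 for SMN1 and chr5:70076521-70076550 for SMN2, both on the plus strand, with position 840 in capitals.
SMN1 around position 840: ggtttCagacaaaatcaaaaagaaggaagg
SMN2 around position 840: ggtttTagacaaaatcaaaaagaaggaagg

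EIF3C and EIF3CL had no differing base over 2742 aligned coding bases, and EIF3CL held 3 more, so that the predicted proteins have 914 residues for EIF3CL and 913 residues for EIF3C. The difference lies in exon 9, in a run of one repeated codon that has 5 units in EIF3CL and 4 units in EIF3C, so that which unit was added cannot be told. It is shown as the only coding difference of this pair, with the run in capitals between the same flanking bases. The stretches are chr16:28392026-28392055 (minus strand) for EIF3CL and chr16:28723251-28723277 (plus strand) for EIF3C.
EIF3CL in exon 9: cctggatGAGGAGGAGGAGGAGgacaatga
EIF3C in exon 9: cctggatGAGGAGGAGGAGgacaatga

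CCZ1 and CCZ1B differed at 2 of 1449 coding bases, and their 482 residues were the same. Position 759 in exon 8 is shown in capitals, at chr7:5910080-5910109 (plus strand) for CCZ1 and chr7:6814771-6814800 (minus strand) for CCZ1B.
CCZ1 around position 759: taccacctcccttttTccaaggcacatcga
CCZ1B around position 759: taccacctcccttttCccaaggcacatcga

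How much of each transcript names its copy was measured as the percentage of its windows of 100 bases that occur in no other gene of the annotation. This was 30.8% for NOMO1, 16.5% for NOMO2 and 11.2% for NOMO3, 13.9% for both SMN1 and SMN2, 4.86% for EIF3C and 2.95% for EIF3CL. It was 11.7% for CCZ1 and 25.1% for CCZ1B, whose transcripts also share windows with RSPH10B and RSPH10B2, genes with at most 9 counts in any library. The CCZ1B transcript compared has 2885 bases, against a length of 1836 bases in the count table, and over the coding sequence alone the percentage was 14.8% for both CCZ1 and CCZ1B. Over the coding sequence EIF3C, at 3.22%, and EIF3CL, at 3.33%, again had the smallest percentages. For NOMO, SMN and EIF3C every window found in a second gene was found only in a copy of the same group. If each such read was counted once, the sum over the copies does not depend on how such reads were divided among them. Reads that were dropped or counted in several copies would change the sum. How reads that fit several copies were counted is not given in the sources used here.

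**Figure D1:**
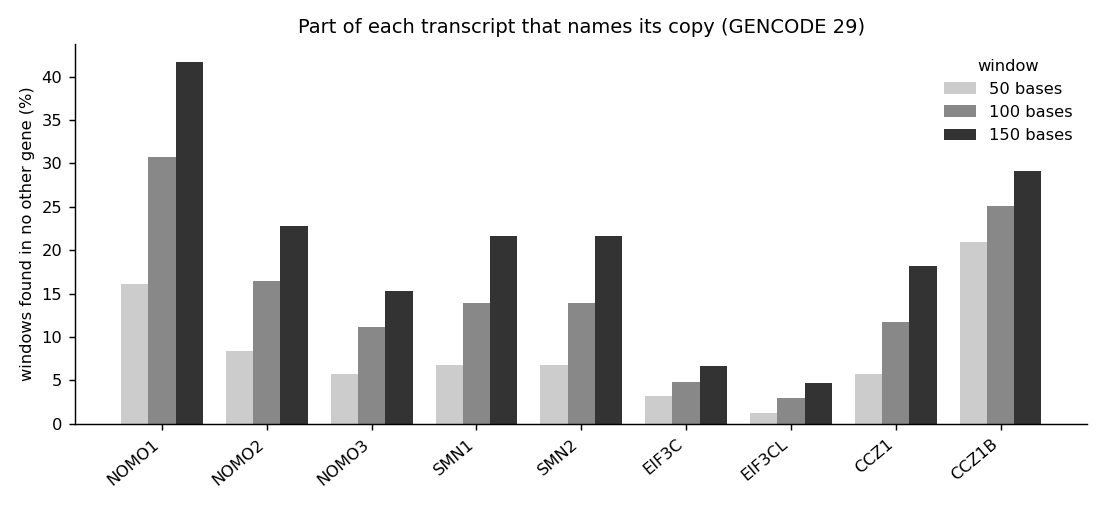
Percentage of windows of 50, 100 or 150 bases (y axis) in the longest coding transcript of each of the 9 genes (x axis) that occur in no other gene of GENCODE release 29. At every window length the pair EIF3C and EIF3CL has the smallest percentages, with 1.25% to 6.61%, and NOMO3 has less than NOMO1 and NOMO2.

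With 0.5 added to the CPM, NOMO3 was the only copy of the 9 past 2-fold between the hairpins, and it was past it in both cell lines. EIF3C in HCC-LM3 cells lay at the threshold, on the lower side, and was past it by the ratio of the deposited FPKM. Among genes that averaged 1 CPM or more, 0.221% of 12683 were more than 2-fold higher with sh-WDR4-2 in HCC-LM3 cells and 0.0394% more than 2-fold lower. In Huh-7 cells 0.0668% of 11971 genes were more than 2-fold higher and 0.0418% more than 2-fold lower. These percentages are background for a comparison that chose the copies. NOMO3 had 832 counts with sh-WDR4-2 and 463 counts with sh-NC in HCC-LM3 cells, and 238 counts with sh-WDR4-2 and 80 counts with sh-NC in Huh-7 cells. On the scale of log2(CPM + 0.5) the HCC-LM3 fold was 1.25 and the Huh-7 fold was 1.48. Here and below the counting interval is that of the log2 count ratio without the added 0.5. For NOMO3 this ratio was 2.45 in HCC-LM3 cells (log2 interval 1.13 to 1.46) and 3.19 in Huh-7 cells (1.30 to 2.06). All such intervals cover counting error only, and in bulk RNA fewer cells that express a gene and less RNA per cell cannot be told apart. In the order of all genes NOMO3 stood 13 from the top in HCC-LM3 cells and 4 from the top in Huh-7 cells.

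The other NOMO copies did not follow NOMO3. NOMO1 had 5916 counts with sh-WDR4-2 and 8131 counts with sh-NC in HCC-LM3 cells, a log2 fold of −0.01 (−0.06 to 0.03) after scaling to depth. In Huh-7 cells NOMO1 had 3832 counts with sh-WDR4-2 and 4943 counts with sh-NC, a log2 fold of −0.26 (−0.33 to −0.20). NOMO2 had 4766 counts with sh-WDR4-2 and 5723 counts with sh-NC in HCC-LM3 cells, a log2 fold of 0.18 (0.13 to 0.24). In Huh-7 cells NOMO2 had 1856 counts with sh-WDR4-2 and 2252 counts with sh-NC, a log2 fold of −0.18 (−0.27 to −0.09). NOMO1 and NOMO2 were thus both lower in Huh-7 cells with sh-WDR4-2, and only NOMO2 was above counting error in HCC-LM3 cells, where it was higher.

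Summed over its copies, NOMO gave a log2 fold of 0.13 (0.10 to 0.17) in HCC-LM3 cells, against −0.19 (−0.24 to −0.14) in Huh-7 cells. Both sums lie inside the central 95% of all genes, which spanned −0.35 to 0.48 in the HCC-LM3 comparison and −0.34 to 0.32 in the Huh-7 comparison. In HCC-LM3 cells sh-WDR4-2 minus sh-NC was 15.4 CPM for NOMO3, 17.6 CPM for NOMO2 and −1.76 CPM for NOMO1, so the gain of NOMO3 was not met by an equal loss of the other copies. The same difference in Huh-7 cells was 4.79 CPM for NOMO3, −22.7 CPM for NOMO1 and −7.10 CPM for NOMO2. There the losses of NOMO1 and of NOMO2 were each larger than the gain of NOMO3. Whether reads moved between the copies was not tested in either cell line. NOMO3 made up 7.23% (exact Clopper-Pearson 95% interval 6.76% to 7.71%) of NOMO counts with sh-WDR4-2 and 3.23% (2.95% to 3.54%) with sh-NC in HCC-LM3 cells. Its Huh-7 share was 4.02% (3.53% to 4.55%) with sh-WDR4-2 and 1.10% (0.873% to 1.37%) with sh-NC. Per length NOMO3 was the lowest of the copies in every library, at 6.47 FPKM with sh-WDR4-2 and 2.64 FPKM with sh-NC in HCC-LM3 cells, against 34.5 to 47.2 FPKM for NOMO1 and NOMO2 there.

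**Figure D2:**
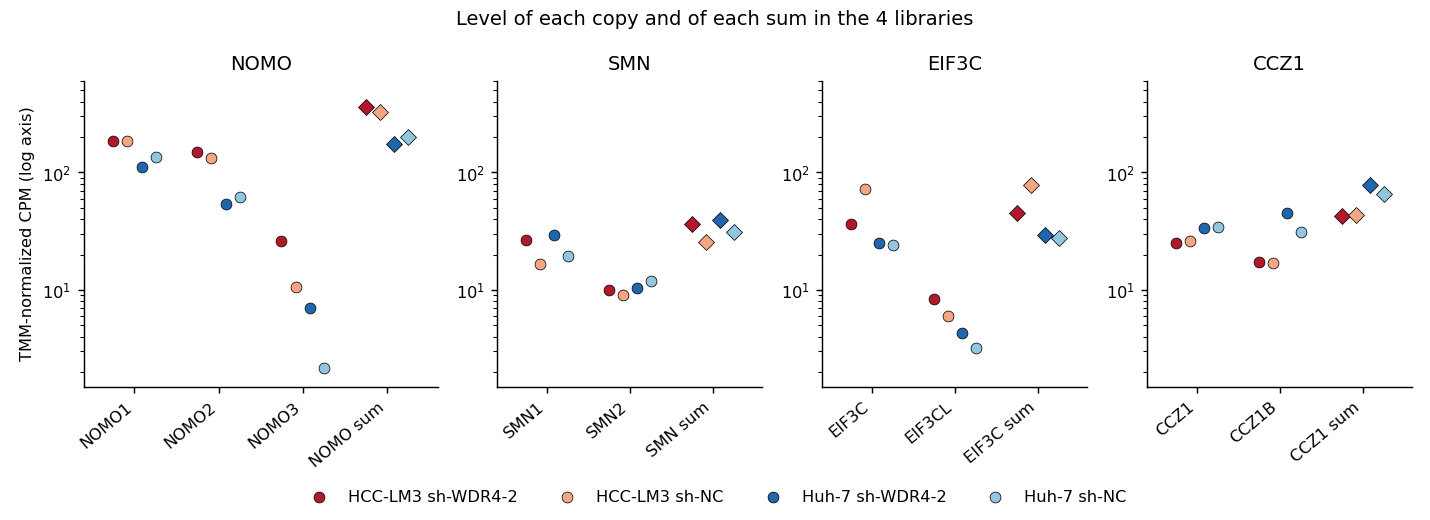
TMM-normalized CPM on a log axis (y axis) of each copy (circles) and each summed group (diamonds) in the 4 libraries, with sh-WDR4-2 left of sh-NC within each cell line and 1 library per point. NOMO3 lies at 26.1 and 10.7 CPM in HCC-LM3 cells and at 6.97 and 2.18 CPM in Huh-7 cells, while the NOMO sum stays between 174 and 361 CPM.

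SMN1, the copy whose transcripts mostly keep the exon with position 840, was higher with sh-WDR4-2 in both cell lines. It had 852 counts with sh-WDR4-2 and 724 counts with sh-NC in HCC-LM3 cells, and 1003 counts with sh-WDR4-2 and 707 counts with sh-NC in Huh-7 cells. Its log2 fold came to 0.66 (0.54 to 0.82) in the HCC-LM3 libraries and 0.59 (0.47 to 0.75) in the Huh-7 libraries. SMN2 had 321 counts with sh-WDR4-2 and 394 counts with sh-NC in HCC-LM3 cells, a log2 fold of 0.14 (−0.07 to 0.37). In Huh-7 cells SMN2 had 354 counts with sh-WDR4-2 and 441 counts with sh-NC, a log2 fold of −0.21 (−0.42 to −0.01). The direction of SMN2 was not detectable at this depth in HCC-LM3 cells, and in Huh-7 cells it was just below 0.

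The SMN sum was higher with sh-WDR4-2 in both cell lines, by a log2 fold of 0.51 (0.40 to 0.63) for HCC-LM3 and 0.34 (0.23 to 0.46) for Huh-7. In HCC-LM3 cells sh-WDR4-2 minus sh-NC was 10.03 CPM for SMN1 and 0.990 CPM for SMN2, and in Huh-7 cells it was 10.09 CPM for SMN1 and −1.67 CPM for SMN2. The gain of SMN1 was thus not met by an equal loss of SMN2 in either cell line. SMN1 made up 72.6% (70.0% to 75.2%) of SMN counts with sh-WDR4-2 and 64.8% (61.9% to 67.6%) with sh-NC in HCC-LM3 cells. The Huh-7 share of SMN1 was 73.9% (71.5% to 76.2%) with sh-WDR4-2 and 61.6% (58.7% to 64.4%) with sh-NC.

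**Figure D3:**
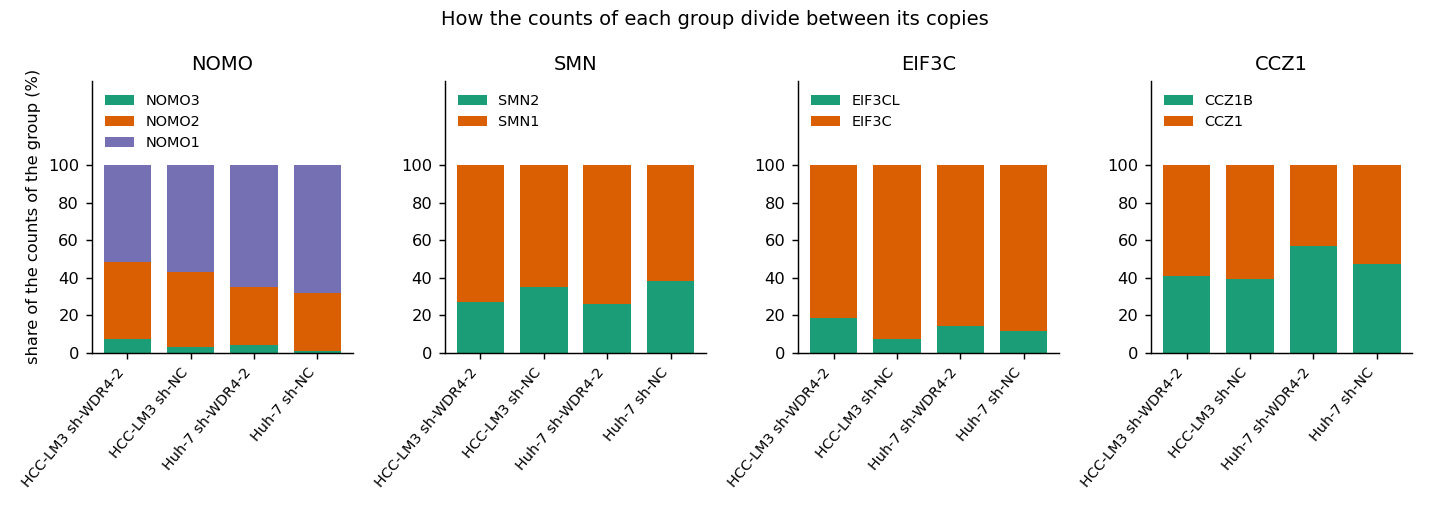
Share of the counts of each group (y axis, percent) held by each of its copies in the 4 libraries, with sh-WDR4-2 left of sh-NC in each cell line and 1 library per bar. With sh-WDR4-2 the shares of NOMO3, SMN1 and EIF3CL are larger than with sh-NC in both cell lines, and that of CCZ1B is larger in Huh-7 cells, at 57.2% with sh-WDR4-2 against 47.5% with sh-NC.

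EIF3C had the lowest log2 fold of the 9 copies, in HCC-LM3 cells alone. It had 1162 counts with sh-WDR4-2 and 3165 counts with sh-NC there, a log2 fold of −0.99 (−1.10 to −0.90), which is 7 from the bottom of 12683 genes. This is at the 2-fold threshold, just short of it here and just past it, at −1.001, by the ratio of the deposited FPKM. In Huh-7 cells EIF3C had 864 counts with sh-WDR4-2 and 893 counts with sh-NC, a log2 fold of 0.05 (−0.08 to 0.19). EIF3CL had 268 counts with sh-WDR4-2 and 261 counts with sh-NC in HCC-LM3 cells, a log2 fold of 0.45 (0.23 to 0.73). In Huh-7 cells EIF3CL had 146 counts with sh-WDR4-2 and 117 counts with sh-NC, a log2 fold of 0.37 (0.06 to 0.78).

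The sum of EIF3C and EIF3CL was at a log2 fold of 0.10 (−0.03 to 0.23) in Huh-7 cells, with 1010 counts in either library. In HCC-LM3 cells the sum was lower with sh-WDR4-2, at −0.81 (−0.91 to −0.73). There sh-WDR4-2 minus sh-NC was −36.4 CPM for EIF3C and 2.39 CPM for EIF3CL, so most of the difference in EIF3C was also in the sum. EIF3CL made up 18.7% (16.7% to 20.9%) of the pair with sh-WDR4-2 and 7.62% (6.75% to 8.56%) with sh-NC in HCC-LM3 cells. The Huh-7 share of EIF3CL was 14.5% (12.3% to 16.8%) with sh-WDR4-2 and 11.6% (9.68% to 13.7%) with sh-NC, and these intervals overlap. The HCC-LM3 sh-NC library stood apart in this pair, with 78.8 CPM against 27.6 to 44.8 CPM in the other 3.

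CCZ1 and CCZ1B gave log2 folds of −0.06 (−0.19 to 0.07) and 0.02 (−0.14 to 0.18) in HCC-LM3 cells. There CCZ1 had 805 counts with sh-WDR4-2 and 1141 counts with sh-NC, and CCZ1B had 553 counts with sh-WDR4-2 and 741 counts with sh-NC. In Huh-7 cells CCZ1B had 1534 counts with sh-WDR4-2 and 1136 counts with sh-NC, a log2 fold of 0.53 (0.42 to 0.65). CCZ1 had 1147 counts with sh-WDR4-2 and 1258 counts with sh-NC in those cells, a log2 fold of −0.03 (−0.15 to 0.09). The CCZ1 sum was within counting error in HCC-LM3 cells, at −0.03 (−0.13 to 0.08), and higher in Huh-7 cells, at 0.26 (0.19 to 0.35). For Huh-7, sh-WDR4-2 minus sh-NC was 13.9 CPM for CCZ1B and −0.736 CPM for CCZ1.

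**Figure D4:**
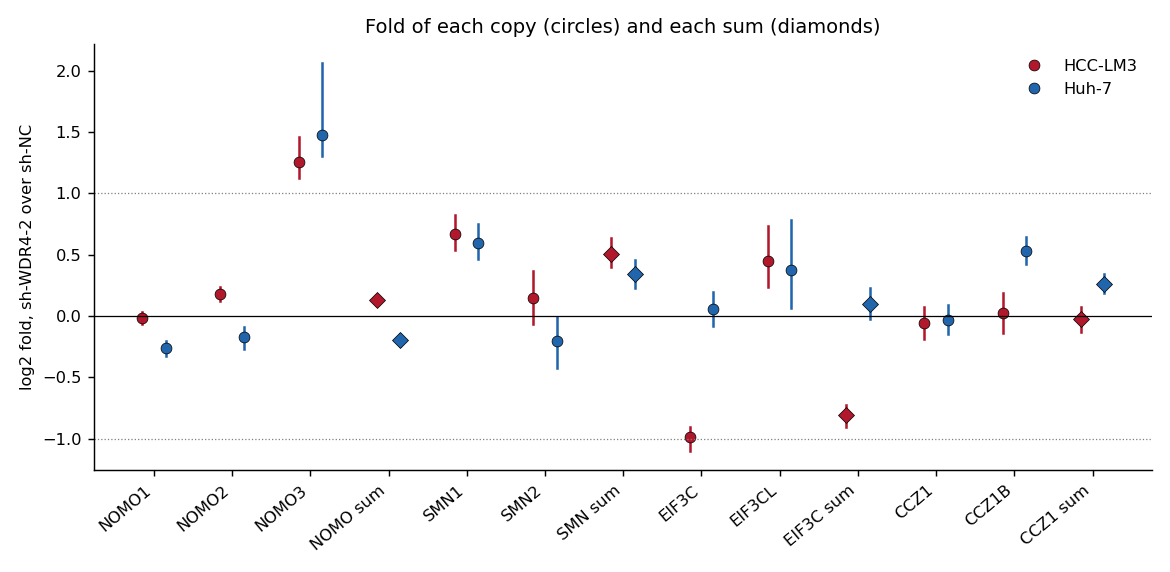
Log2 fold of sh-WDR4-2 over sh-NC (y axis) of each copy (circles) and each summed group (diamonds) in HCC-LM3 cells (red) and Huh-7 cells (blue), with lines for the 95% counting interval and dotted lines at 2-fold. NOMO3 is past the upper line in both cell lines, while the NOMO sum lies at 0.13 in HCC-LM3 cells and −0.19 in Huh-7 cells. The EIF3C sum lies at −0.81 in HCC-LM3 cells, near the −0.99 of EIF3C itself.

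The differences between copies were set beside those in other groups of near-identical genes. Of 26 such groups listed, 24 had at least 2 entries, and 15 in HCC-LM3 cells and 14 in Huh-7 cells had at least 2 copies of 1 CPM or more. In these the median difference in log2 fold between the highest and the lowest copy was 0.21 in HCC-LM3 cells and 0.26 in Huh-7 cells, with maxima of 2.47 and 1.12. It was above 1 in 1 group in HCC-LM3 cells, FAM156, and in 2 groups in Huh-7 cells, GTF2IRD2 at 1.12 and POLR2J at 1.02, both named after their values were seen. For NOMO the difference was 1.27 in the HCC-LM3 and 1.74 in the Huh-7 libraries, and in the same order it was 0.52 and 0.80 for SMN, 1.44 and 0.32 for EIF3C, and 0.08 and 0.56 for CCZ1. All but that of CCZ1 in HCC-LM3 cells were above the median of the other groups. In HCC-LM3 cells, however, FAM156 exceeded all 4 groups, and FAM72, at 0.74, and CDK11, at 0.59, exceeded SMN. In Huh-7 cells GTF2IRD2, POLR2J and FAM72, at 0.90, exceeded SMN, EIF3C and CCZ1. There FAM156, at 0.66, exceeded EIF3C and CCZ1, and CBWD, at 0.51, exceeded EIF3C. FAM72, CDK11 and CBWD were also named after their values were seen. As the 4 groups were chosen on this contrast, that is a description. In the other groups 1 copy was past 2-fold, FAM156A, with 56 counts with sh-WDR4-2 and 503 counts with sh-NC in HCC-LM3 cells, a log2 fold of −2.42 (−3.15 to −2.32). Its copy FAM156B had 795 counts with sh-WDR4-2 and 1044 counts with sh-NC there, a log2 fold of 0.05 (−0.08 to 0.19), and no sum of the other groups was past 2-fold in either cell line.

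The other genes of the complexes stayed within 2-fold, as nearly all genes did. Over all genes 0.221% were more than 2-fold higher and 0.0394% lower in HCC-LM3 cells, and 0.0668% and 0.0418% in Huh-7 cells. Of 26 partner genes listed, 24 were measured at 1 CPM or more. None of these 24 was past 2-fold in either cell line, which is no departure from that background. Their log2 folds spanned −0.27 to 0.15 (HCC-LM3) and −0.23 to 0.16 (Huh-7). Their median was −0.05 for HCC-LM3 and 0.02 for Huh-7, beside a median of all genes of 0.00 in both. EIF3A and EIF3D, at most 10 counts in any library, made up the rest, and both symbols break the row order. The partners of NOMO, NCLN and TMEM147, had log2 folds of −0.11 and −0.17 in HCC-LM3 cells and 0.04 and −0.01 in Huh-7 cells. Among the eIF3 subunits EIF3E, EIF3J and EIF3B had log2 folds of 0.15, −0.12 and 0.12 in HCC-LM3 cells, where EIF3C had −0.99. In Huh-7 cells they had 0.01, −0.01 and −0.03, beside 0.05 for EIF3C. Among the SMN partners GEMIN2, GEMIN8 and GEMIN4 had log2 folds of −0.23, −0.19 and 0.16 in Huh-7 cells, where SMN1 had 0.59. In HCC-LM3 cells they had 0.03, −0.21 and −0.09, beside 0.66 for SMN1. The CCZ1 partners MON1B, MON1A and RMC1 (listed as C18orf8) had log2 folds of −0.27, −0.22 and −0.05 in HCC-LM3 cells and 0.06, 0.01 and 0.08 in Huh-7 cells.

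Per length, the pair EIF3C and EIF3CL stood well below the other subunits of its complex. The summed pair had 15.2 FPKM with sh-WDR4-2 and 26.8 FPKM with sh-NC in HCC-LM3 cells, where the 10 measured eIF3 partners had medians of 124.6 FPKM with sh-WDR4-2 and 120.1 FPKM with sh-NC and none was below 40.1 FPKM. In Huh-7 cells the pair had 8.77 FPKM with sh-WDR4-2 and 8.17 FPKM with sh-NC, where the partners had medians of 139.6 FPKM with sh-WDR4-2 and 138.6 FPKM with sh-NC and none was below 59.3 FPKM. The SMN and CCZ1 sums lay among their partners. The NOMO sum did so in HCC-LM3 cells, at 92.3 and 84.3 FPKM beside 42.7 to 132.3 FPKM for its partners. In Huh-7 cells the NOMO sum, at 38.6 and 44.2 FPKM, was below both partners, at 46.4 to 87.7 FPKM, though closer than EIF3C was. Whether reads shared by copies were left out of the counts was not tested, and EIF3C and EIF3CL are the genes with the smallest private part of the transcript.

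**Figure D5:**
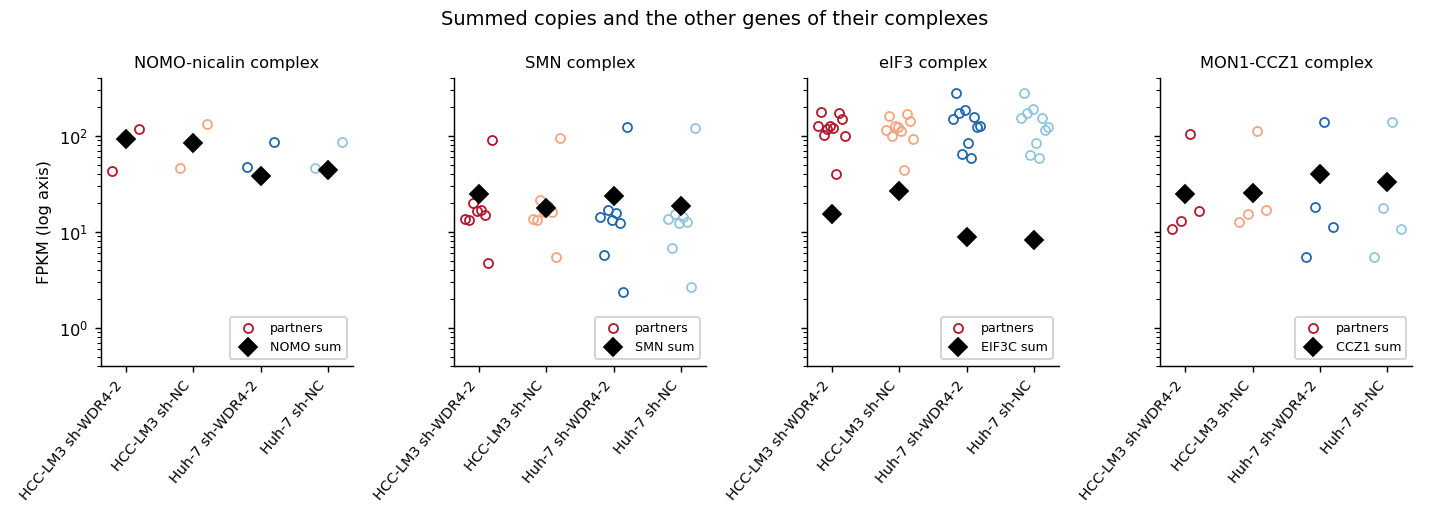
FPKM on a log axis (y axis) of the summed copies (black diamonds) and of the other measured genes of their complexes (open circles) in the 4 libraries, with sh-WDR4-2 left of sh-NC in each cell line. The EIF3C sum, at 8.17 to 26.8 FPKM, lies below every measured eIF3 partner, while the SMN and CCZ1 sums lie among their partners. The NOMO sum lies among its partners in HCC-LM3 cells and below both in Huh-7 cells.

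Between the cell lines the NOMO copies were higher and the CCZ1 copies lower in HCC-LM3 cells than in Huh-7 cells. With the hairpin as a block, edgeR's quasi-likelihood test (2 libraries per cell line, 1 residual degree of freedom) called 6 of the 9 copies at a Benjamini-Hochberg adjusted p under 0.05, 4 higher and 2 lower in HCC-LM3 cells. Of all 12693 genes tested 77.8% were called, 38.9% higher and 38.9% lower, so 6 of 9 is no excess over the background. NOMO2, at 149 and 132 CPM in HCC-LM3 cells against 54.4 and 61.5 CPM in Huh-7 cells, gave a log2 fold of 1.28 (SE 0.08, adjusted p = 1.4e-07). NOMO1, at 185 and 187 CPM in HCC-LM3 cells against 112 and 135 CPM in Huh-7 cells, gave 0.60 (SE 0.06, adjusted p = 4.4e-07). NOMO3, at 26.1 and 10.7 CPM in HCC-LM3 cells against 6.97 and 2.18 CPM in Huh-7 cells, gave 2.06 (SE 0.16, adjusted p = 1.4e-09). The libraries of the cell lines did not overlap for any of the 3 copies, but the call of NOMO3 was lost without the hairpin term (adjusted p = 0.19) and in each fit that left out a library and had no such term (adjusted p = 0.25 to 0.47). The NOMO sum gave 0.89 (SE 0.08, adjusted p = 1.5e-05).

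CCZ1B, at 17.3 and 17.05 CPM in HCC-LM3 cells against 44.9 and 31.01 CPM in Huh-7 cells, gave a log2 fold of −1.12 (SE 0.12, adjusted p = 3.3e-06). Its call was lost when either HCC-LM3 library was left out (adjusted p = 0.14 for both), a fit that also lacks the hairpin term. CCZ1, at 25.2 and 26.2 CPM in HCC-LM3 cells against 33.6 and 34.3 CPM in Huh-7 cells, gave −0.40 (SE 0.08, adjusted p = 3.4e-04), and the CCZ1 sum gave −0.74 (SE 0.08, adjusted p = 3.3e-07). EIF3CL, at 8.39 and 6.005 CPM in HCC-LM3 cells against 4.28 and 3.19 CPM in Huh-7 cells, gave 0.94 (SE 0.21, adjusted p = 4.4e-04). EIF3C gave 1.07 (SE 0.49, adjusted p = 0.27) and its pair 1.07 (SE 0.40, adjusted p = 0.20), neither past the threshold, with the HCC-LM3 libraries at 36.4 and 72.8 CPM of EIF3C against 25.3 and 24.4 CPM in Huh-7 cells. EIF3C was called with DESeq2 (adjusted p = 0.047). Its log2 fold was 1.56 without the HCC-LM3 sh-WDR4-2 library and 0.55 without the HCC-LM3 sh-NC library. In those fits the spread of EIF3C comes from the Huh-7 libraries alone. They therefore cannot weigh the gap between the HCC-LM3 libraries.

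SMN1 and SMN2 were not called, at log2 folds of −0.17 (SE 0.09, adjusted p = 0.10) and −0.23 (SE 0.15, adjusted p = 0.16). SMN1 had 26.7 and 16.7 CPM in HCC-LM3 cells against 29.4 and 19.3 CPM in Huh-7 cells, and the cell lines overlapped. The SMN sum was called at −0.20 (SE 0.08, adjusted p = 0.040), and the call was lost with DESeq2 (adjusted p = 0.23) and without the hairpin term (adjusted p = 0.44). Of the 4 fits that left out a library it was called in 1, that without HCC-LM3 sh-WDR4-2, at −0.46.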

How the data were processed

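RNA was measured in 4 libraries of established human cell lines, 1 per cell line and hairpin. The authors deposited 1 table, with unnormalized whole-number counts and FPKM for each symbol. These deposited FPKM equal counts scaled by a fixed gene length and by the library total. Tools and builds in the submitters' notes are Bowtie 0.12.2, mm8 and mm9, the last being mouse assemblies. The paper describes a mRNA library kit. Not given in the sources used here are the read counter, the human annotation and the handling of reads that fit several genes.

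Counts were scaled by TMM (factors 0.933 to 1.07) in edgeR 4.0.16 under R 4.3.3. Within a cell line, log2(CPM + 0.5) was compared without a test, at a mean of at least 1 CPM and a 2-fold threshold, with exact conditional binomial intervals of count ratios. Cell lines were compared with edgeR's robust quasi-likelihood test with the hairpin as a block, since the libraries of a cell line differ in hairpin. For sums the copies were replaced by their sum in the same fit. The p-values come from these libraries alone, with no replicate of any cell line and hairpin. Their error is how far the hairpin difference of a gene varies between the cell lines, moderated by that of all genes tested. Alternatives were DESeq2 1.42.0, other scalings, pseudocounts, filters and thresholds, no hairpin term, and each library left out. Other values came from scipy 1.17.1, pandas 2.3.3 and numpy 2.4.6 under Python 3.11.15. Coding sequences were compared in GENCODE release 29 (GRCh38), with the longest coding transcript of each gene. The authors' build may differ, and no coordinate comes from the count table. The order of the table was that of a dictionary of 32768 places for 18993 of 19225 symbols, and 232 stood out of it.

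The copies and the lists of partners, other groups and markers were chosen with earlier results of these data known. Named were all copies, up to 3 partners per complex with the largest fold between the hairpins, and other groups with a copy past 2-fold. Other groups with a wide difference between copies were named after their values were seen. Symbols with 0 counts everywhere (2648) could not be compared, and 6 symbols occurred more than once.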

Additional observations from a re-analysis of the deposited data

Results flagged for a closer look

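The NOMO sum differed between the hairpins in opposite directions in the cell lines, with a log2 fold of 0.13 (counting interval 0.10 to 0.17) for HCC-LM3 and −0.19 (−0.24 to −0.14) for Huh-7. NOMO2 did the same, at 0.18 (0.13 to 0.24) for HCC-LM3 and −0.18 (−0.27 to −0.09) for Huh-7. Each counting interval leaves out 0. With 1 library per cell line and hairpin this opposition was not tested, and the HCC-LM3 sh-WDR4-2 library alone came from lane 4.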

How the results depend on the processing

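Between the hairpins, the folds of all copies and sums stayed within their counting intervals in all 130 alternative values. These used other size factors, library totals alone, pseudocounts of 0.1 and 1, and the ratio of the deposited FPKM. Other scalings could hardly move a fold. The TMM factors were 1.0711 and 1.0714 in HCC-LM3 cells, and 0.9329 and 0.9341 in Huh-7 cells. The FPKM ratio of a copy is its count ratio scaled by library totals, so it lies inside the interval nearly by construction. Counts of genes past 2-fold, 33 for HCC-LM3 and 13 for Huh-7, were 59 and 26 with a pseudocount of 0.1, 50 and 26 without a filter, 12 and 1 at a mean of 10 CPM, and 233 and 112 at 1.5-fold. With a pseudocount of 1 the count in Huh-7 cells was 7. Between the cell lines, 9881 genes were called, and 8905 to 9791 with a library left out. NOMO1, NOMO2, EIF3CL, CCZ1 and the NOMO and CCZ1 sums kept direction and call in all 8 alternatives. The SMN sum (−0.20) was −0.19 without the replicate block, the hairpin term (adjusted p = 0.44), and −0.18 with DESeq2 (0.23). With a library left out the SMN sum was −0.46 without HCC-LM3 sh-WDR4-2, 0.049 without HCC-LM3 sh-NC, −0.010 without Huh-7 sh-WDR4-2 and −0.35 without Huh-7 sh-NC. SMN1 was −0.54 to 0.16, positive without HCC-LM3 sh-NC (0.14) and without Huh-7 sh-WDR4-2. The EIF3C sum was called with DESeq2 (1.08, adjusted p = 0.022), and was 0.65 to 1.47 with a library left out. NOMO3 kept its direction, at 1.23 to 3.06 with a library left out, and was called in 3 of 8 alternatives. Fits that leave out a library assume that the lone library of a cell line varies like the other line. They also have no hairpin term, so their cell-line fold holds part of the hairpin difference. In such a fit the cell-line and hairpin parts cannot be told apart. Among the other near-identical groups, leaving out those with a symbol out of the order of the table, chosen after seeing the data, gave medians of 0.19 and 0.26. EIF3C in HCC-LM3 cells, at −0.99, crossed 2-fold by the FPKM ratio (−1.001). Depth sets the width of the counting intervals, which was 0.76 for NOMO3 and 0.72 for EIF3CL in Huh-7 cells, and 0.50 for EIF3CL and 0.43 for SMN2 in HCC-LM3 cells.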
